A study of Morus alba var. atropurpurea with 12 samples.

Results

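In mulberry roots, 84 transcripts stepped down in mean level at each of 3 rising doses of cadmium chloride. They were picked from 22727 transcripts listed in at least 1 library, of which 17782 had at least 1 FPKM in at least 3 libraries and are called the tested transcripts here. The deposited unit is FPKM, which divides the fragments of a transcript by its length and by the mapped fragments of the library, and a transcript that a library did not list was set to 0. L is the mean of log2(FPKM + 1) over the 3 libraries of a group. A tested transcript was picked where L fell by at least 0.25 between control and 5 mM, again between 5 and 10 mM and again between 10 and 20 mM, by at least 1 from control to 20 mM, and where all 20 mM libraries lay below all control libraries. The falls of the 84 over the dose series chose them, so these falls are given as a description without a test. The same rule turned round picked 67 rising transcripts.

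The plants were seedlings of the cultivar Yuesang10 (Morus alba var. atropurpurea), raised 3 months in soil, cut back to 10 cm of shoot and 2 cm of root, and moved to full-strength Hoagland nutrient solution. After 3 days in that solution, control plants stayed without cadmium and treated plants received 5, 10 or 20 mM cadmium chloride for 20 days, with 3 root libraries in each of the 4 groups. Each sample is labelled as root, although the series text mentions fruit. Root identity could not be checked against marker genes, because the files give transcripts only as identifiers with the prefix XM, which RefSeq uses for predicted messenger RNAs, without names. Whether replicate libraries stand for separate plants is not stated. The p-values behind the counts of calls therefore measure the spread between these libraries, which may be technical.

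Roots are the organ that meets dissolved cadmium first. The metal has no known use in mulberry and enters plant roots largely through carriers of essential metals such as iron, zinc and manganese. Plant cells are known to bind it with glutathione and with phytochelatins, peptides made from glutathione, and to move the complexes into the vacuole. Cadmium also slows root growth and disturbs redox balance. Which of these processes the 84 transcripts belong to is not known here, and no role is given to any of them. In pieces of whole root, fewer cells of a type and less RNA per cell cannot be told apart.

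Libraries listed between 19381 and 20071 transcripts, and their correlations within a group, taken across tested transcripts, ran from 0.924 to 0.969. Between any 2 libraries, of the same group or not, the range was 0.911 to 0.969. The worth of 1 read, read from the steps between low values, stayed within a 1.12-fold range over the 12 libraries, while absolute read depth stays unknown. This worth was higher in every control library than in every treated library. Its relative group means were 1.05 in control, 0.99 with 5 mM, 0.97 with 10 mM and 0.98 with 20 mM. The library labelled 10 mM replicate 1 stood apart from the other 10 mM libraries in the transcripts described here, and the results that turn on it are given with and without it. Control replicate 2 had the lowest median over tested transcripts, 8.86 FPKM, against 9.96 to 11.96 FPKM in the other libraries.

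As a group, the 84 transcripts sat lower with each dose in most libraries, as the rule asks of their group means. Each transcript was centred on the mean of its 4 group means, and the median over the 84 was then read in each library on the log2 scale. It was 0.999, 0.734 and 0.928 in the control libraries. The 5 mM libraries followed with 0.22, 0.30 and 0.52, the 10 mM libraries with 0.24, -0.45 and -0.59, and the 20 mM libraries with -0.99, -1.18 and -1.06. Replicate 1 at 10 mM thus lay within the range of the 5 mM libraries, and the other 2 libraries at 10 mM lay between the 5 and 20 mM libraries. In 10 mM replicate 1, 38 of the 84 lay above their own 5 mM mean, against 7 in replicate 2 and 4 in replicate 3. Over all tested transcripts 54.0%, 54.1% and 51.5% did so in these 3 libraries. Replicate 1 held the highest of the 3 values at 10 mM for 57 of the 84, and for 37.8% of all tested transcripts.

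**Figure D1:**
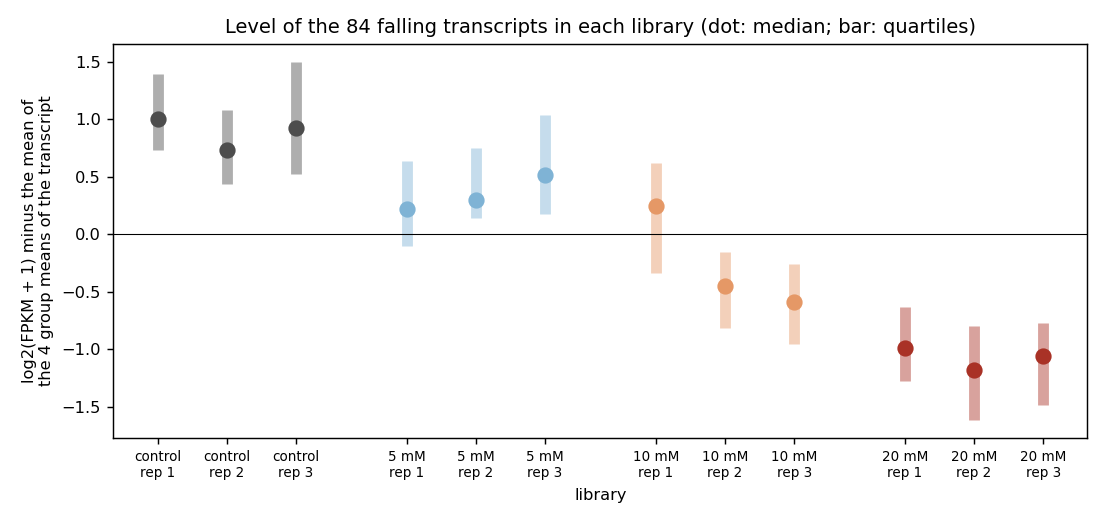
Level of the 84 falling transcripts in each of the 12 libraries, as log2(FPKM + 1) after centring each transcript on the mean of its 4 group means. Dots are medians over the 84 and bars run between quartiles. The median of 10 mM replicate 1, 0.24, sits among the 5 mM libraries (0.22 to 0.52), above the other 10 mM libraries.

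The group held a small part of the messenger pool, and that part shrank with dose. The FPKM values of the 84 made up 0.516% ± 0.0260 of a library's FPKM sum in control. With 5 mM they made up 0.381% ± 0.0140, with 10 mM 0.265% ± 0.0644 and with 20 mM 0.151% ± 0.0180 (SD, n = 3 in each group). The 3 libraries at 10 mM held 0.338%, 0.217% and 0.240%, and their mean without replicate 1 was 0.228%. The shares of the 4 groups did not overlap, and the lowest share at 5 mM was 0.372%. The rule chose the members for falling levels, so a share that shrinks with dose follows from that choice. Nothing is read from the shrinking or from the lack of overlap. The 2 most abundant members held 32.9% of the group's control FPKM. Without them the mean shares from control to the top dose were 0.347%, 0.246%, 0.163% (0.138% without 10 mM replicate 1) and 0.0832%.

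**Figure D2:**
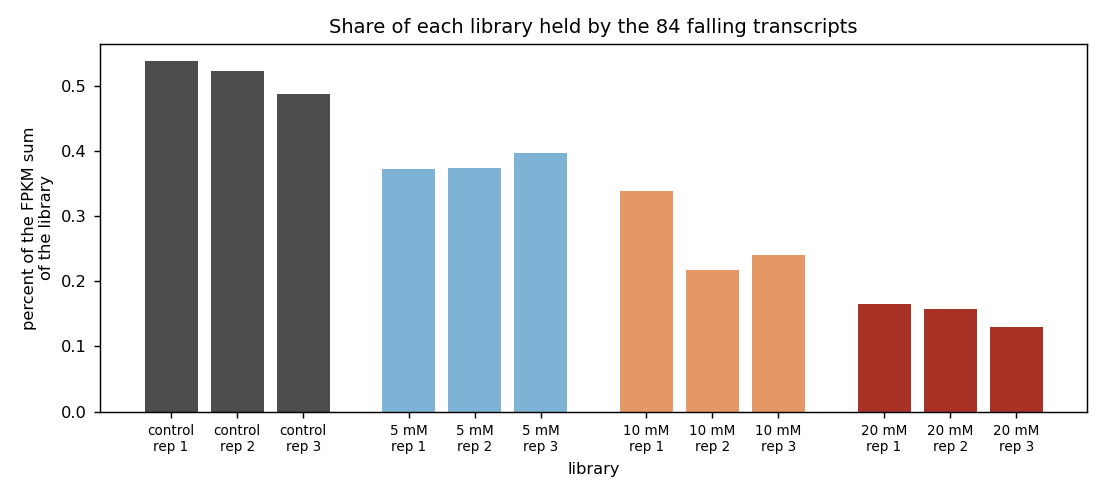
Percent of each library's FPKM sum held by the 84 falling transcripts, with 1 bar per library and the axis starting at 0. Shares run from 0.487% to 0.537% in control libraries and from 0.130% to 0.164% in 20 mM libraries.

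Levels of the members spanned a wide range. Their control means ran from 1.54 to 993 FPKM with a median of 19.5 FPKM, and the median over all tested transcripts was 10.5 FPKM. The mean at 20 mM had a median of 1.33 FPKM over members and a highest value of 398 FPKM. Of the 84, 36 had a control mean under 10 FPKM, 27 had 10 to 50 FPKM and 21 had 50 FPKM or more. The share of the control FPKM still present at 20 mM had a median of 6.20% in the lowest of these bands, 12.6% in the middle band and 25.7% in the highest band. The rule asks for a whole fall of at least 1 on the log2(FPKM + 1) scale, which by itself obliges a low member to keep a smaller share of its FPKM, so nothing is read from the order of the bands. On the log2(FPKM + 1) scale the median fall from control to 20 mM was 1.83, 2.58 and 1.99 in the same order of bands, and the added 1 holds down the falls of the low members on this scale. Over all 84 the median share of the control level was 67.0% with 5 mM, 36.8% with 10 mM (27.3% without replicate 1) and 12.7% with 20 mM, with a highest value of 47.2% at 20 mM.

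Some members were not listed at all at the top dose. The rule puts every control value above every 20 mM value, so every control library had to list all 84. In the 3 libraries at 20 mM, 18, 22 and 14 of the members stood at 0. The shares of all tested transcripts at 0 in single libraries are not given here, so nothing is read from these counts. At 0 in all 20 mM libraries stood 11 members, and 46 of all tested transcripts (0.259%). The 11 had control means from 1.64 to 17.1 FPKM with a median of 3.55 FPKM, so most were low throughout. Of these 11, 4 were also at 0 in 10 mM replicates 2 and 3, and 10 mM replicate 1 listed all 4.

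The largest whole falls among members with a control mean of at least 5 FPKM belonged to XM_010089470.1 and XM_010108555.1. XM_010089470.1 stood at 62.18, 103.53 and 34.13 FPKM in control libraries, 57.86, 29.66 and 37.93 FPKM with 5 mM, 2.60, 4.27 and 1.68 FPKM at 10 mM, and 1.01, 0.58 and 0.67 FPKM at 20 mM. Control and 5 mM libraries overlapped, all 10 mM libraries lay far below them, and all 20 mM libraries lay lower still. Its L was lower by 0.57 at 5 mM than in control, by 3.48 at 10 mM than at 5 mM and by 1.09 at 20 mM than at 10 mM, and the difference of 20 mM minus control was -5.14 ± 0.47 (SE from the 2 groups, n = 3 each). Its middle step was also the largest middle step of all members, and the value without 10 mM replicate 1 was 3.46. Its first step was 0.19 without control replicate 2, 0.98 without control replicate 3 and 0.36 without 5 mM replicate 2.

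XM_010108555.1 stood at 63.58, 15.87 and 18.71 FPKM in control libraries, 9.82, 14.63 and 20.06 FPKM with 5 mM, 87.36, 6.02 and 0.72 FPKM at 10 mM, and 0.75, 0 and 1.48 FPKM at 20 mM. Replicate 1 at 10 mM held its highest value of all 12 libraries, above every control library. The fall of L from 10 to 20 mM was 2.65, the largest last step of all members, and it was 1.09 without 10 mM replicate 1, while the fall from 5 to 10 mM was 0.58 with that library and 2.14 without it. That middle step was 0.35 without 5 mM replicate 3, 0.31 without 10 mM replicate 2 and -0.71, a rise, without 10 mM replicate 3. The first step was 0.86, or 0.256 and 1.22 without control replicates 1 and 2. The difference of 20 mM minus control, which does not involve the 10 mM libraries, was -4.09 ± 0.72 (SE, n = 3 each).

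The largest first steps belonged to XM_010094048.1 and XM_010091048.1. XM_010094048.1 stood at 10.49, 40.83 and 5.49 FPKM in control libraries, 2.58, 1.44 and 2.45 FPKM with 5 mM, 1.18, 1.61 and 0.50 FPKM at 10 mM, and 0.53, 0 and 2.08 FPKM at 20 mM. All treated libraries lay below all control libraries, and the 3 treated groups overlapped with their neighbours. Its L was lower by 2.23 at 5 mM than in control and by 0.61 and 0.29 at the next 2 steps, or by 0.65 and 0.24 without 10 mM replicate 1. The first step was 1.47 without control replicate 2, whose value was the highest of all libraries. The middle step was 0.38 without 10 mM replicate 3. The last step was 0.11 and 0.51 without 10 mM replicates 2 and 3, and -0.09, a rise, and 0.72 without 20 mM replicates 2 and 3.

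XM_010091048.1 stood at 4.29, 3.56 and 26.25 FPKM in control libraries, 1.99, 1.95 and 3.66 FPKM with 5 mM, 0.68, 0.40 and 0.29 FPKM at 10 mM, and 0, 0 and 0.19 FPKM at 20 mM. Control replicate 3 was far above the other control libraries, and the 5 mM library of replicate 3 lay just above the lowest control value. The falls of L over the 3 steps were 1.33, 1.25 and 0.45. Without control replicate 3 the first fall was 0.51, and without 10 mM replicate 1 the other falls were 1.36 and 0.34.

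The second largest middle step, after that of XM_010089470.1, was that of XM_010110548.1. This transcript stood at 7.60, 10.66 and 32.90 FPKM in control, 5.59, 11.59 and 12.51 FPKM at 5 mM and 11.36, 0 and 0 FPKM at 10 mM, and it was listed in no 20 mM library. It was therefore present in 10 mM replicate 1 within the range of the control libraries and absent from the lists of the other 10 mM libraries. Its middle fall was 2.17 with and 3.38 without 10 mM replicate 1, and its last fall was 1.21 with and 0 without it. Its first fall was 0.53, or 0.21 without 5 mM replicate 1 and -0.05, a rise, without control replicate 3.

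The second largest last step was that of XM_010111267.1. It stood at 78.61, 39.20 and 26.59 FPKM in control libraries, 60.87, 12.61 and 35.23 FPKM with 5 mM, 17.37, 25.47 and 25.06 FPKM at 10 mM, and 16.71, 2.13 and 1.01 FPKM at 20 mM. The 20 mM libraries differed widely, with replicate 1 just below the lowest 10 mM library. The last fall was 2.28, or 2.45 without 10 mM replicate 1, and the first 2 falls were 0.51 and 0.42. The middle fall was 0.251 without 10 mM replicate 1. Leaving out 5 mM replicates 1 and 2 in turn gave -0.07, a rise, and 1.02. The first fall was 0.09 and 0.86 without control replicates 1 and 3, and 1.004 and -0.09 without 5 mM replicates 1 and 2.

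The members with the highest control means were XM_010112320.1 and XM_010112713.1, and their falls were among the smaller ones. XM_010112320.1 stood at 896.59, 1311.35 and 769.88 FPKM in control libraries, 961.16, 775.29 and 658.89 FPKM with 5 mM, 682.93, 455.92 and 630.79 FPKM at 10 mM, and 403.61, 454.22 and 334.90 FPKM at 20 mM. Neighbouring groups overlapped at the first 2 steps, and all 20 mM libraries lay below all 10 mM libraries by a narrow margin. The group means were 993 ± 283, 798 ± 152, 590 ± 119 and 398 ± 59.9 FPKM (SD, n = 3 each) from control to 20 mM, and the difference of L for 20 mM minus control was -1.29 ± 0.26 (SE). The falls of L over the 3 steps were 0.29, 0.44 and 0.56. The first fall was 0.07 without control replicate 2 and 0.16 without 5 mM replicate 3.

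XM_010112713.1 stood at 435.00, 837.58 and 406.45 FPKM in control libraries, 331.78, 457.47 and 413.76 FPKM with 5 mM, 418.98, 228.46 and 354.90 FPKM at 10 mM, and 173.89, 275.50 and 205.26 FPKM at 20 mM. All neighbouring groups overlapped. The difference of L for 20 mM minus control was -1.30 ± 0.38 (SE, n = 3 each). The falls of L over the 3 steps were 0.41, 0.29 and 0.59. Without control replicate 2 the first fall was 0.08 and the whole fall 0.97, under the limit of 1 in the rule. The middle fall was 0.19 without 5 mM replicate 2 and 0.04 without 10 mM replicate 2.

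**Figure D3:**
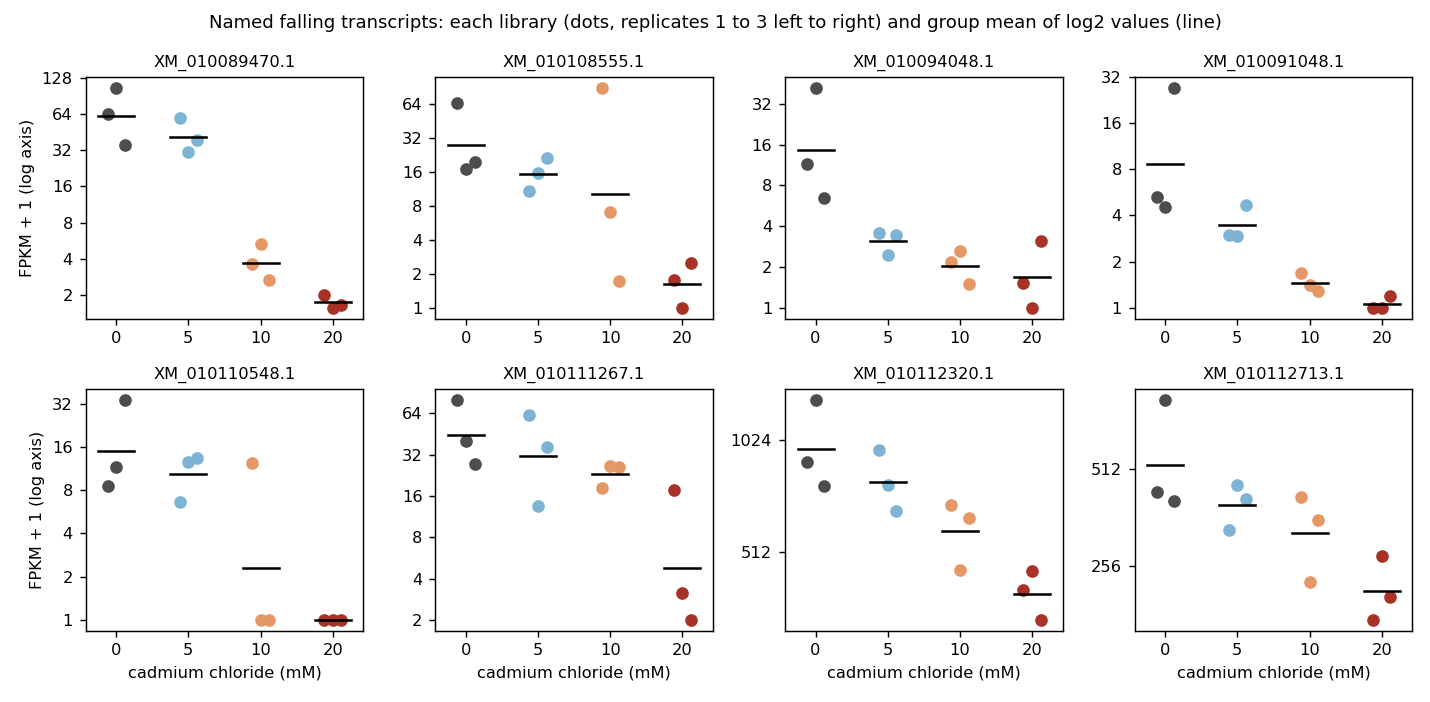
FPKM + 1 on a log axis for the 8 named falling transcripts at 0, 5, 10 and 20 mM cadmium chloride, with 1 dot per library and a line at the group mean of the log2 values. XM_010108555.1 and XM_010110548.1 show 10 mM replicate 1 (87.36 and 11.36 FPKM) apart from the other libraries of that dose.

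The 3 steps were not equal, and their order turned on a single library. The median fall of L was 0.51 from control to 5 mM, 0.59 from 5 to 10 mM and 0.73 from 10 to 20 mM, the last step spanning more dose than the others. Over all tested transcripts these medians were -0.07, -0.04 and 0.05, where a negative value means a higher level at the higher dose. The first step was the largest for 18 members, the middle step for 30 and the last step for 36. Without 10 mM replicate 1 the middle and last medians were 0.85 and 0.49, and the counts were 10, 51 and 23. In the same setting 58 of the 84 still fell by at least 0.25 at the last step, and 10 members showed a last step of 0 or a rise.

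**Figure D4:**
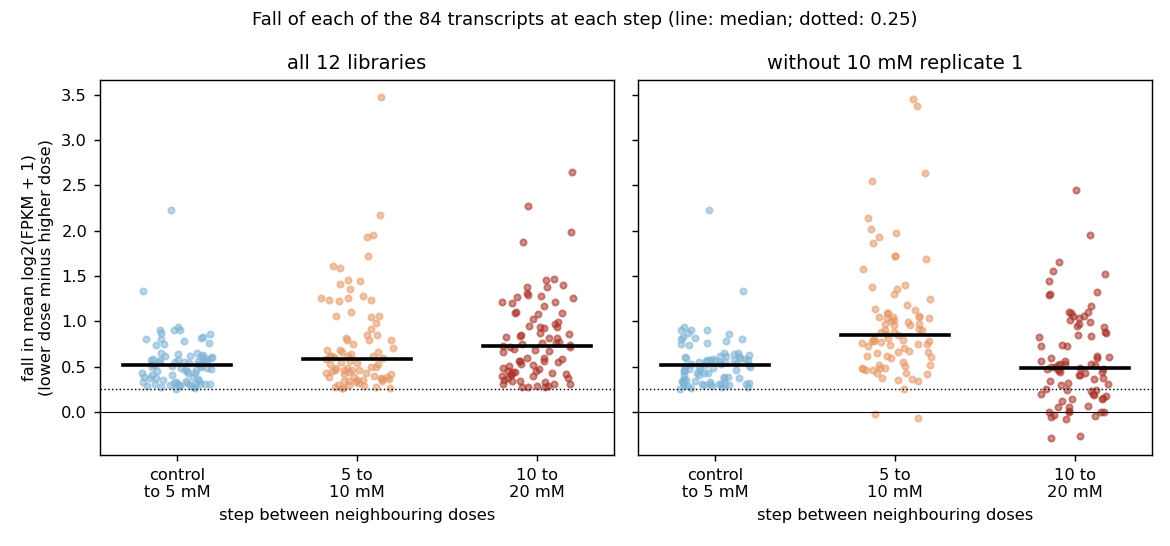
Fall in mean log2(FPKM + 1) of each of the 84 transcripts between neighbouring doses, lower dose minus higher dose, with a line at the median and a dotted line at 0.25. On the left, with all 12 libraries, every point lies above the dotted line because the rule requires it. On the right, without 10 mM replicate 1, the median of the middle step is 0.85 and that of the last step 0.49.

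Separation between single libraries was less regular than the group means. The rule required all 20 mM libraries to lie below all control libraries, which 8.53% of tested transcripts did. All 10 mM libraries lay below all control libraries for 41 members, against a background of 6.29%, and for 73 members without 10 mM replicate 1 (12.2% of tested transcripts). All 5 mM libraries lay below all control libraries for 9 members (background 7.22%). All 20 mM libraries lay below all 5 mM libraries for 71 members (background 8.82%). At the middle step all 10 mM libraries lay below all 5 mM libraries for 18 members (background 7.21%), or 53 without 10 mM replicate 1 (14.1% of tested transcripts). At the last step all 20 mM libraries lay below all 10 mM libraries for 27 members (background 8.62%), or 32 without that library (14.4% of tested transcripts). The group means used by the rule come from these same libraries, so nothing is read from the distance between members and background.

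Of all tested transcripts, 1 showed no overlap at any of the 3 steps (background 0.00562%). It is a member, XM_010108825.1, named after its values were seen. It stood at 2.65, 2.38 and 3.83 FPKM in control libraries, 1.85, 0.98 and 1.96 FPKM with 5 mM, 0.74, 0.88 and 0.94 FPKM at 10 mM, and 0.58, 0.38 and 0.29 FPKM at 20 mM. Its pooled SD within groups, 0.23 on the log2 scale, was the lowest of all members. Without 10 mM replicate 1 a further member had such a profile, which made 2 members and 0.0281% of tested transcripts. It was XM_010105515.1, also named after its values were seen, with 152.89, 134.75 and 142.77 FPKM in control libraries, 61.18, 96.87 and 96.15 FPKM with 5 mM, 96.38, 51.26 and 51.75 FPKM at 10 mM, and 44.57, 24.95 and 39.77 FPKM at 20 mM.

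The spread within groups was wider among the members than among tested transcripts in general. The pooled SD within groups had a median of 0.60 over members and 0.36 over all tested transcripts. By group, the median SD was 0.57 in control, 0.50 with 5 mM, 0.63 with 10 mM and 0.36 with 20 mM, and in the 10 mM group it was 0.35 without replicate 1. Over all tested transcripts these medians were 0.34, 0.27, 0.32 and 0.30, and 0.24 at 10 mM without replicate 1. Whether the rule itself favours transcripts of wide spread was not tested. Members also deviated together from their group means, with a mean correlation over pairs of members of 0.11, against 0.04 over pairs of tested transcripts. Without 10 mM replicate 1 the same means were 0.05 and 0.05. These correlations are taken over deviations in shared libraries, and transcripts are not independent replicates.

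The members included transcripts that cannot be counted as separate. XM_010097626.1 and XM_010097627.1, named after their values were seen, had the same value in all 12 libraries, from 2.55, 1.14 and 4.87 FPKM in control to 0.13, 0.39 and 0.19 FPKM at 20 mM. They hold 1 set of measurements, so the 84 members give 83 distinct profiles. In all, 144 tested transcripts shared every value with another. Whether other members share reads with near-identical transcripts was not tested.

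The values of members near the limits of the rule show how it bounds the group. The smallest first, middle and last steps inside it were 0.2502, 0.266 and 0.272, and the smallest whole fall was 1.04. Transcripts that met every other condition and missed only 1 of these numbered 136 for the first step, 147 for the middle step, 52 for the last step and 4 for the whole fall, with nearest values of 0.243, 0.248, 0.245 and 0.988. A further 24 failed only the separation of 20 mM from control.

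A limma fit over all 12 libraries and all tested transcripts gave 41 members an adjusted p (Benjamini-Hochberg) under 0.05 for a lower level at 20 mM than in control, where the background was 0.692%. The rule used this contrast and every contrast below. All counts here, adjusted or not, are therefore descriptions, and nothing is read from their distance to the background. The count of 41 was 18 without control replicate 1 and 25 without control replicate 3, where the background was 0.214% and 0.349%. It was 26 without 5 mM replicate 2 (background 0.354%) and 51 without 10 mM replicate 1 (background 0.945%). With 20 mM replicates 1, 2 and 3 left out it was 21, 14 and 22, where the background was 0.276%, 0.197% and 0.506%. For 20 mM against 5 mM, 8 members were called lower (background 0.202%). Leaving out 5 mM replicates 1, 2 and 3 in turn gave 5, 2 and 3 (background 0.157%, 0.0675% and 0.0619%). Leaving out the 10 mM libraries in the same order gave 12, 5 and 5 (background 0.304%, 0.180% and 0.169%), and leaving out the 20 mM libraries gave 3, 2 and 2 (background 0.0900%, 0.0844% and 0.146%). For 10 mM against control 1 member was called lower (background 0.0337%), 2 without 10 mM replicate 1 (background 0.0731%) and 3 without control replicate 3 (background 0.0337%). For 5 mM against control limma called 0 members lower (background 0%), against 7 at an unadjusted p under 0.05, a threshold that 4.18% of tested transcripts passed in that direction. For 10 mM against 5 mM 1 member, XM_010089470.1, was called lower (background 0.0281%), and 0 without any 1 of the 5 mM libraries or without 10 mM replicate 3 (background 0% each). For 20 mM against 10 mM limma called 0 members lower (background 0%), against 28 at an unadjusted p under 0.05, which 5.46% of tested transcripts passed in that direction.

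A further reading came from libraries kept out of the selection, on lists that share only part of their transcripts with the 84. Separate plants are not stated, so the left-out libraries are not known to be independent of the others. The rule was applied to the 8 libraries of 2 replicate numbers, and the picked transcripts were then read in the 4 libraries of the number left out. Here "all transcripts" are those with at least 1 FPKM in at least 3 of the 8 libraries. The lists of picked transcripts held 75, 130 and 120 transcripts with numbers 1, 2 and 3 left out, of which 34, 38 and 33 are among the 84. In the left-out libraries 82.7%, 77.7% and 82.5% of the picked transcripts were lower at 20 mM than in control, against 51.6%, 37.7% and 50.4% of all transcripts. The median of 20 mM minus control was -1.42, -0.79 and -0.98 for the picked transcripts and -0.02, 0.23 and -0.01 for all. The left-out control library of number 2 is the one with the lowest median over tested transcripts. With 10 mM replicate 1 also kept out of the selection, the lists read in the libraries of numbers 2 and 3 held 126 and 110 transcripts, of which 81.0% and 77.3% were lower at 20 mM than in control. No p is given, since transcripts within a library are not independent of each other.

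The single steps were read in the left-out libraries in the same way. At the middle step 46 of 75, 91 of 130 and 109 of 120 picked transcripts were lower at 10 mM than at 5 mM with numbers 1, 2 and 3 left out, against 40.4%, 44.8% and 55.5% of all transcripts. At the first step 55 of 75, 58 of 130 and 60 of 120 were lower at 5 mM than in control, against 56.2%, 37.6% and 42.3% of all transcripts. At the last step 53 of 75, 83 of 130 and 62 of 120 were lower at 20 mM than at 10 mM, against 54.97%, 52.1% and 50.2% of all. The median first step in the left-out libraries was 0.36, -0.08 and 0.01, the median middle step 0.49, 0.54 and 0.73, and the median last step 0.73, 0.45 and 0.02. With 10 mM replicate 1 also kept out of the selection, the medians for numbers 2 and 3 were -0.15 and 0.12 at the first step, 0.44 and 0.73 at the middle step and 0.67 and 0.09 at the last step. In that setting 53 of 126 and 65 of 110 were lower at the first step, 87 and 93 at the middle step and 97 and 61 at the last step. After median scaling, with lists of 120, 127 and 173 transcripts, the medians were 0.24, 0.16 and 0.18 at the first step, 0.53, 0.61 and 0.60 at the middle step and 0.40, 0.57 and 0 at the last step. The first step thus had a positive median for all 3 numbers with median scaling and not without it. All 4 left-out libraries stood in the order of the doses for 21.3%, 16.9% and 16.7% of the picked transcripts, against 4.58%, 3.15% and 5.41% of all. With 10 mM replicate 1 kept out of the selection this share was 19.8% and 21.8% for numbers 2 and 3, against 3.15% and 5.3996% of all.

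**Figure D5:**
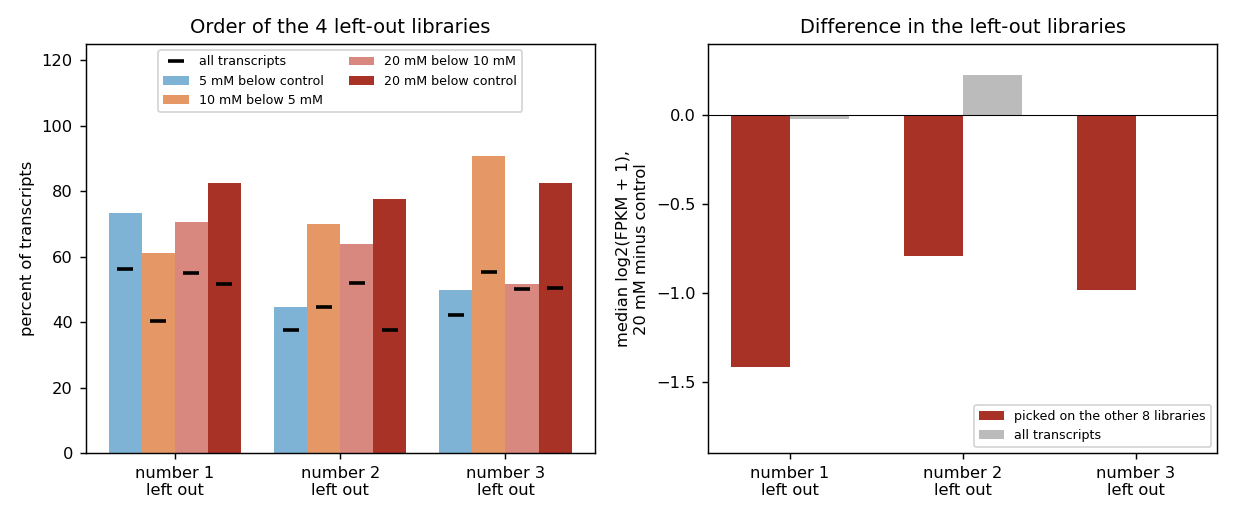
Transcripts picked by the rule on 8 libraries and read in the 4 libraries of the replicate number left out. The left panel gives the percent that were lower in each pair of doses (bars) beside that of all transcripts (black marks), and the right panel the median log2 difference of 20 mM minus control for picked (red) and all (grey) transcripts. The picked transcripts reach 77.7% to 82.7% for 20 mM below control, against 37.7% to 51.6% of all transcripts.

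A core of 11 members was picked again in each of the 12 selections that left out a single library. The same rule was applied to overlapping sets of libraries, so this choice keeps members further inside its limits. Nothing is therefore read from the size of the falls of these 11. Their control means ran from 2.95 to 94.3 FPKM, and their level at 20 mM was 0.557% to 27.8% of control. Their median falls at the 3 steps were 0.76, 0.85 and 0.82, and their smallest falls were 0.45, 0.47 and 0.39. XM_010091048.1 and XM_010108825.1, described above, are among them. The core member with the highest control mean, named after its values were seen, is XM_010100240.1. It stood at 64.55, 159.72 and 58.51 FPKM in control libraries, 59.74, 32.43 and 46.00 FPKM with 5 mM, 13.92, 12.54 and 46.89 FPKM at 10 mM, and 14.76, 9.36 and 9.13 FPKM at 20 mM. Here replicate 3, not replicate 1, was the high library at 10 mM, and the 5 mM and control groups overlapped by a single library.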

How the data were processed

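For every library the authors deposited a table of FPKM per transcript, per the file headers. How reads were aligned and counted, on which build and with which filters, is not given in the sources used here. Tables hold values from 0.01 upward only. Groups and replicate numbers came from the sample titles, and values were analysed as log2(FPKM + 1) with Python 3.11.15. A limma fit (limma 3.58.1 under R 4.3.3) of the 4 group means used all 12 libraries, a trend of variance with level, no block and Benjamini-Hochberg adjustment over 17782 transcripts. The fit was tested on simulated data.

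The members and lists were chosen with earlier results of these data known. Lists of gene families, pathways and tissue markers, written as patterns in product descriptions, could not be applied, since identifiers were not paired with names. Named transcripts were at most 2 per description, those with the largest whole fall, first, middle or last step among members with a control mean of at least 5 FPKM, and the highest control means. Others are said to be named after their values were seen.

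Pairing of replicate numbers was checked with correlations of deviations from group means across transcripts. For 10 mM and control all same-numbered pairs exceeded 0.1 (0.268, 0.170 and 0.176), which held for no other 2 groups. The labels name no shared batch. In sparse transcripts 84.1% of values were whole multiples, to within 0.1, of what 1 read is worth. The lowest values set that worth, so they lie near 1 read by construction. Among the 3513 values above 1.5 reads the share was 75.4%. Alternatives were a pseudocount of 0.1, other filters, scalings, thresholds and fits, the replicate block, and each library left out.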

Additional observations from a re-analysis of the deposited data

How the results depend on the processing

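The number of transcripts the rule picks depends on its limits. It was 84 as defined, 150 with steps of at least 0.15, 45 with steps of at least 0.35 and 49 with a mean of at least 5 FPKM. A pseudocount of 0.1 gave 122, median scaling 115, quantile normalization 103, group medians 83 (48 of them members), no separation of 20 mM from control 108, and no filter 84. Leaving out each library in turn gave 70 to 148, with 48 to 82 of the 84 among them. The extremes above 1.5 times were 148 with control replicate 2 left out and 129 with 20 mM replicate 3 left out, and the 84 picked in the absence of 10 mM replicate 1 held 56 members. The median change of the members at 20 mM minus control, -1.99, was -2.94 with a pseudocount of 0.1 and -2.26 among members with a mean of at least 5 FPKM, and -2.10 to -1.86 with a library left out. The rule used every contrast that follows, so the counts of calls are descriptions. Members called lower at 20 mM against control numbered 41 (background 0.692%). They numbered 26 where only the 2 groups were fitted (background 0.321%) and 42 with the replicate block (background 0.737%). With a library left out they numbered 14 to 51, where the background was 0.197% to 0.945%. At 10 mM against control the count was 1 (background 0.0337%). It was 2 with a mean of at least 5 FPKM (background 0.134%) or quantile normalization (background 0.0844%). It was 0 where only the 2 groups were fitted with limma and 1 with the replicate block (background 0.00562% each). With a library left out it was 1 to 3, where the background was 0.00562% to 0.0731%, and 3 without control replicate 3 (background 0.0337%). At 5 mM against control limma called 0 in every setting run, where the background was 0% to 0.0169%. At an unadjusted p under 0.05 it called 7 (4.18% of tested transcripts). At 10 mM against 5 mM the count was 1 (background 0.0281%). It was 0 where only the 2 groups were fitted (background 0.00562%) and 1 with the replicate block (background 0.0225%). With a library left out it was 0 to 1, where the background was 0% to 0.0394%. At 20 mM against 10 mM limma called 0 in every setting run, where the background was 0% to 0.0251%. At an unadjusted p under 0.05 it called 28 (5.46% of tested transcripts). Both contrasts were added after seeing the data. At 20 mM against 5 mM the count of 8 was 4 without a filter, 4 under robust moderation with no variance trend, 15 where only the 2 groups were fitted, 7 with the replicate block and 2 to 12 with a library left out. The mean share of picked transcripts lower at 20 mM in left-out libraries was 81.0%, and it was 78.8% with a pseudocount of 0.1 and 82.7% with median scaling. Without 10 mM replicate 1, chosen after seeing the data, 10 mM lay below every control library for 73 members in place of 41 and below every 5 mM library for 53 in place of 18. Over all tested transcripts the median log2 change at 10 mM against control was -0.02 after median scaling and 0.09 before it, a shift of over 0.1, and all 84 members were picked again under it. Counting the 2 identical members as 1 gave 83. The causes were not tested. None of the 8 named transcripts changed the direction of 20 mM minus control with a pseudocount of 0.1, median scaling, quantile normalization or a library left out, the settings run for them. The rule puts every 20 mM library below every control library. Another pseudocount or a library left out could therefore not have changed that direction. Read depth is unknown, so a value of 0 limits no share.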
